A study of Mus musculus with 12 samples.

Results

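The genes examined were 30 genes of sterol and fatty acid synthesis in the mouse aorta, in a study of rapamycin in aortic dissection (AD). They were chosen by gene name: a probe on the array belonged to the set if it was not a control spot and if the array files named 1 of the 30 genes. This gave 47 of 55675 named probes and 30 of 34796 gene names. All 30 genes had at least 1 probe bright enough to be tested, with 42 probes in all, out of 27801 probes and 20026 gene names tested on the array. The sterol arm held 21 of the genes and the fatty acid arm held 9. RNA was measured in 12 male C57BL/6J mice aged 11 to 14 weeks, with 1 Agilent 1-colour array for each mouse and 3 mice in each of 4 groups, from a 10 mm stretch of aorta above the right renal artery. All mice received daily intraperitoneal injections in dimethylsulfoxide (DMSO), so the vehicle was shared by all groups. The DMSO group received vehicle only, and the rapamycin group received rapamycin, an inhibitor of the kinase mTOR, at 2 mg/kg/day. The BA+DMSO group received vehicle plus β-aminopropionitrile (BAPN) at 150 mg/kg/day, an inhibitor of lysyl oxidase, the enzyme that crosslinks collagen and elastin, together with angiotensin II (AngII) at 1 µg/kg/min, both from implanted minipumps. The BA+rapamycin group received the same BAPN + AngII challenge with rapamycin at 2 mg/kg/day. Tissue was taken at day 3. The sample titles of the DMSO group begin with Pre, a word the study uses for the state before challenge, whereas the record of the series describes vehicle treatment and day 3. A sham pump in the unchallenged groups is not mentioned in the sources used here.

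Cells make sterols from acetyl-CoA through mevalonate, isoprenoid units, squalene and lanosterol, and they make fatty acids from the same precursor through malonyl-CoA. Both arms are known targets of the sterol regulatory element binding proteins, which Srebf2 and Srebf1 encode. These factors are held in the endoplasmic reticulum by Insig proteins when sterols are plentiful, and are escorted by Scap to proteases in the Golgi when sterols are scarce. The product of Srebf2 mainly drives the sterol arm, and that of Srebf1 mainly drives the fatty acid arm. The mTOR complex that rapamycin inhibits is known from other systems to promote the activity of these factors. In the aortic wall, smooth muscle cells, macrophages and the surrounding fat all run both arms, and dividing cells need new membrane sterol.

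Promoter sequences were read for the genes on which the results turn, to show the stretch where the sterol regulatory factors and their partner NF-Y are known to bind. RefSeq promoters on the build GRCm38.p6, each running from 250 bases before to 50 bases after a start site, were matched by symbol for 24 of the 30 genes, 1 of them by a synonym (Sc4mol as Msmo1). The unmatched genes were Fdps, Fdft1, Sqle, Stard4, Scd1 and Scd2. Hmgcs1 (chr13:119690101-119690350 on the plus strand) is shown because it alone of the matched promoters held a sterol regulatory element core. Idi1 (chr13:8885356-8885605 on the plus strand), Insig1 (chr5:28071162-28071411 on the plus strand), Mvk (chr5:114444019-114444268 on the plus strand) and Mvd (chr8:122443423-122443672 on the minus strand) are shown as sterol genes whose values are given in full: an isoprenoid step, a regulator and a pair of mevalonate steps. Elovl6 (chr3:129532136-129532385 on the plus strand) is shown as the fatty acid gene with the largest rise under challenge. Only the 250 bases before the start are printed, 5′ to 3′ on the strand of the gene, and capitals mark the core TCACNCCAC and the NF-Y box CCAAT, the latter also as its reverse complement.
Hmgcs1: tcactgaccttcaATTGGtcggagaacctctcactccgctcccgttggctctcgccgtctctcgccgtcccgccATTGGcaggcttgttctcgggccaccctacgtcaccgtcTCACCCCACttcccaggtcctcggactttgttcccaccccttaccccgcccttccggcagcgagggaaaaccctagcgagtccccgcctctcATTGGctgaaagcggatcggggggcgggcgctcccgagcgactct
Idi1: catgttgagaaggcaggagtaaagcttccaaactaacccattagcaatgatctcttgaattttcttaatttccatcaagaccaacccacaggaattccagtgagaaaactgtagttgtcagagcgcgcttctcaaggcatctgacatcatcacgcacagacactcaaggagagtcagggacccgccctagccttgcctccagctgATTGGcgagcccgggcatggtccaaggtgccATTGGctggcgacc
Insig1: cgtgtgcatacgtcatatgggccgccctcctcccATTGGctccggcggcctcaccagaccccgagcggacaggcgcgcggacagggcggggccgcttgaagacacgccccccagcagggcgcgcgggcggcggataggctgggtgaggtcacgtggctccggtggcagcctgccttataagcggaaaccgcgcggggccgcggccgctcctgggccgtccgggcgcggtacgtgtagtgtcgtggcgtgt
Mvk: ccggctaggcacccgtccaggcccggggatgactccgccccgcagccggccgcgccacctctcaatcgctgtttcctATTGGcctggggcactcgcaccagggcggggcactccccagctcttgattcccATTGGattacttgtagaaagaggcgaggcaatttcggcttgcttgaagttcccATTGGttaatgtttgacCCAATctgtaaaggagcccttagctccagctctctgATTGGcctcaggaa
Mvd: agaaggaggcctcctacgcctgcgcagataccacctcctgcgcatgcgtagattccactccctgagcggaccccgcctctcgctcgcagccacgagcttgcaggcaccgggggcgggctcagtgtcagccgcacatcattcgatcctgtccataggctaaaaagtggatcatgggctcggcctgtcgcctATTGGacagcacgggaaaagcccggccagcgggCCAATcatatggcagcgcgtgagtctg
Elovl6: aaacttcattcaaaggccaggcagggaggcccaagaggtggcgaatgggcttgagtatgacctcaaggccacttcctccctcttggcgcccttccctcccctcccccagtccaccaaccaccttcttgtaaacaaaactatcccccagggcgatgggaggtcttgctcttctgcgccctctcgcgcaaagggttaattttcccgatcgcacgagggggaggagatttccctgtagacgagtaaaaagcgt

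Motifs were counted over the full 300 bases on both strands. The NF-Y box CCAAT was present in 16 of 20 promoters of the sterol arm (80%), in 6 of 10 promoters of the fatty acid arm (60%) and in 37.4% of the 32851 promoters in the table. The printed Mvk window holds 5 of these boxes, at 173, 120, 67, 50 and 14 bases before the start, and the printed Hmgcs1 window holds 3. The core TCACNCCAC was found in 1 sterol promoter, that of Hmgcs1 at 137 bases before the start, in 0 of 10 fatty acid promoters and in 1.24% of all promoters. Hmgcs1 held both motifs, as did 0.441% of all promoters. The E-box CACGTG was present in 4 of 20 sterol promoters (20%: Dhcr7, Hsd17b7, Insig1 and Sc5d), in 0 of 10 fatty acid promoters and in 7.15% of all promoters. No match of 1 motif overlapped a match of another in these promoters. A match says only that these letters stand in the window, and the Elovl6 window held none of these motifs.

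The tissue carried the markers of the aortic wall. All 6 smooth muscle markers (Myh11, Acta2, Tagln, Cnn1, Smtn and Des) were well above background, with a mean level of 7.50 to 7.59 on DMSO arrays, 7.40 to 7.57 on rapamycin arrays, 6.56 to 7.85 on BA+DMSO arrays and 7.26 to 7.36 on BA+rapamycin arrays. Levels are log2 processed signals relative to the 75th percentile of the same array, so a level of 0 equals that percentile, and a level of 1 probe says nothing about another probe. The markers of 2 tissues that are rich in lipid synthesis, the adrenal gland (4 genes) and the liver (3 genes), did not reach the brightness needed for testing. Arrays of the challenged groups were dimmer. The 75th percentile was 221 to 280 intensity units on DMSO arrays, 257 to 337 on rapamycin arrays, 78.1 to 246 on BA+DMSO arrays and 74.6 to 109 on BA+rapamycin arrays. The arrays lay on 2 slides. Slide 1 held all DMSO arrays and rapamycin replicate 1, and slide 2 held rapamycin replicates 2 and 3 and every challenged array, so slide and challenge cannot be told apart in the comparison of BA+DMSO with DMSO. The titles of 10 samples carry a date, and what it marks is not stated. DMSO replicates 2 and 3 share a date with rapamycin replicates 2 and 3, BA+DMSO replicate 1 with BA+rapamycin replicate 1, and DMSO replicate 1 with BA+rapamycin replicate 3, whereas BA+DMSO replicates 2 and 3 carry none. Arrays of a date deviated together, with a consensus correlation of 0.50 within dates over all tested probes. BA+DMSO replicates 2 and 3 were each given a block of their own in this correlation and in the models with date as a random block. In whole tissue, fewer cells of a type and less RNA per cell cannot be told apart either.

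Within the set, BA+DMSO replicate 2 stood apart from the other arrays of its group. It gave the lowest value of the group for 19 of 21 sterol genes and for 6 of 9 fatty acid genes. BA+DMSO replicates 1 and 3 each exceeded every DMSO array for 19 of 21 sterol genes, and replicate 2 did so for 5. The same array was the dimmest of its group (78.1 intensity units), had the highest smooth muscle level (7.85) and had the lowest scores for macrophage and cell cycle markers. The part of these differences in the results was not tested. The counts of calls, and the values that moved most, are also given without it.

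**Figure D1:**
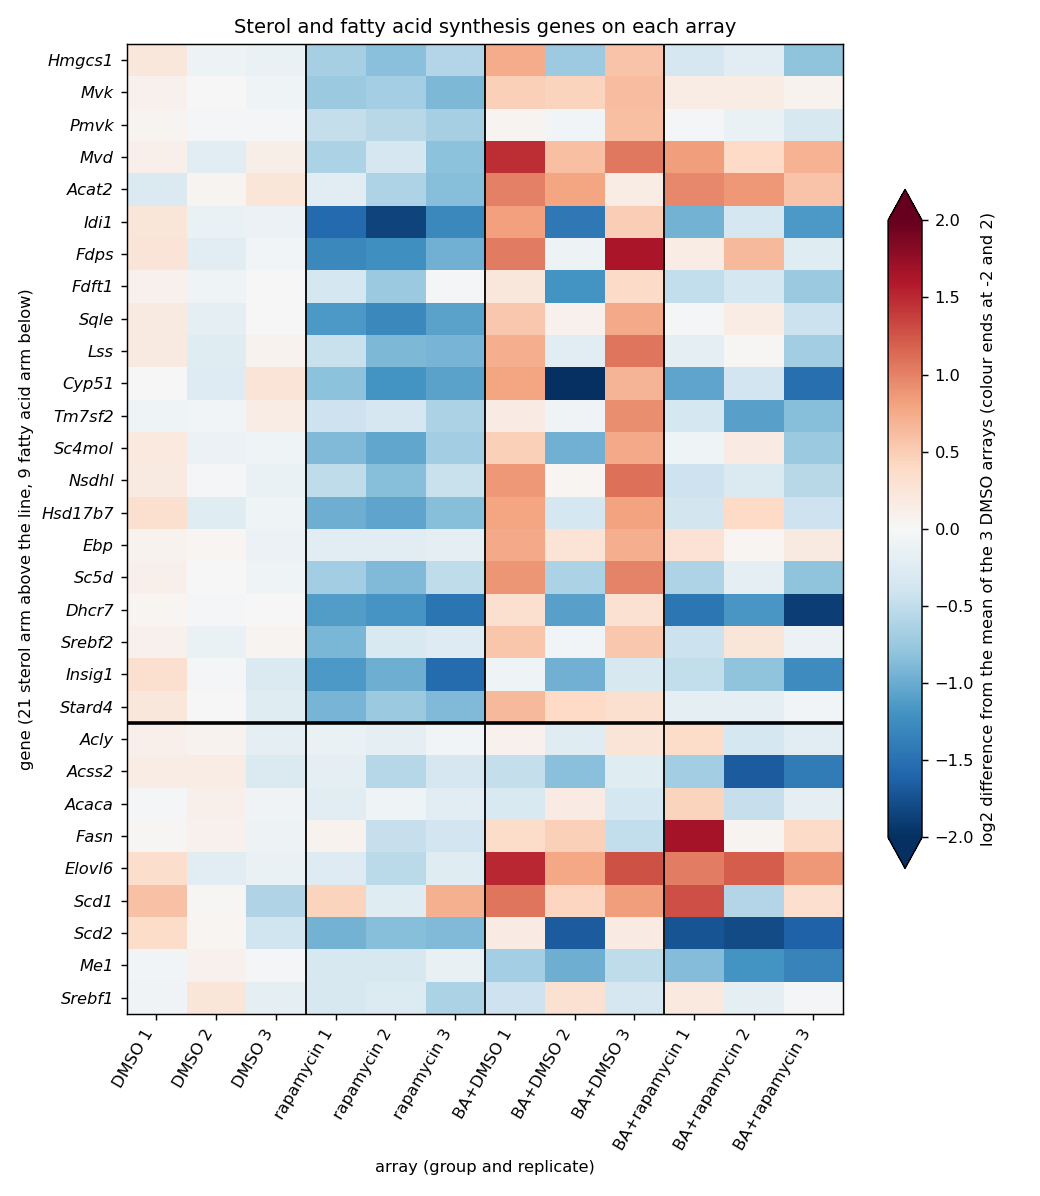
Level of the 30 genes on each of the 12 arrays as the log2 difference from the mean of the 3 DMSO arrays, with genes in rows (21 of the sterol arm above the line, 9 of the fatty acid arm below) and arrays in columns. The 3 rapamycin arrays are blue in nearly all sterol genes, BA+DMSO replicates 1 and 3 are red in most of them, and BA+DMSO replicate 2 is paler or blue.

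Across the 4 groups, the sterol arm was lowest with rapamycin alone and highest with challenge and vehicle. The rapamycin mean was the lowest of the 4 group means for 18 of 21 sterol genes, and the measured BA+rapamycin mean was lowest for the other 3, of which Dhcr7 was not well above background on any BA+rapamycin array, so that its rank is not known. The BA+DMSO mean was the highest for 15 sterol genes, the DMSO mean for 5 and the BA+rapamycin mean for 1. A score for an arm was taken on each array as the median over its genes of the difference from the DMSO mean. The sterol score was 0.10, -0.08 and -0.05 on the DMSO arrays and -0.74, -0.85 and -0.85 on the rapamycin arrays, with no overlap. It was 0.72, -0.10 and 0.68 on the BA+DMSO arrays and -0.34, -0.13 and -0.55 on the BA+rapamycin arrays. Replicate 2 of BA+DMSO lay just above the highest BA+rapamycin array.

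The fatty acid arm had no such order. Its score was 0.11, 0.08 and -0.17 on DMSO arrays, -0.20, -0.31 and -0.25 on rapamycin arrays, 0.08, 0.17 and -0.25 on BA+DMSO arrays, and 0.37, -0.46 and -0.18 on BA+rapamycin arrays. Only the DMSO and rapamycin arrays were apart, by a small margin. The rapamycin mean was the lowest for 5 of 9 fatty acid genes, the BA+rapamycin mean for 3 and the DMSO mean for 1. Genes also varied more between the challenged mice than between the unchallenged ones. The median SD of a sterol gene over 3 arrays was 0.18 for DMSO, 0.18 for rapamycin, 0.56 for BA+DMSO and 0.31 for BA+rapamycin.

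**Figure D2:**
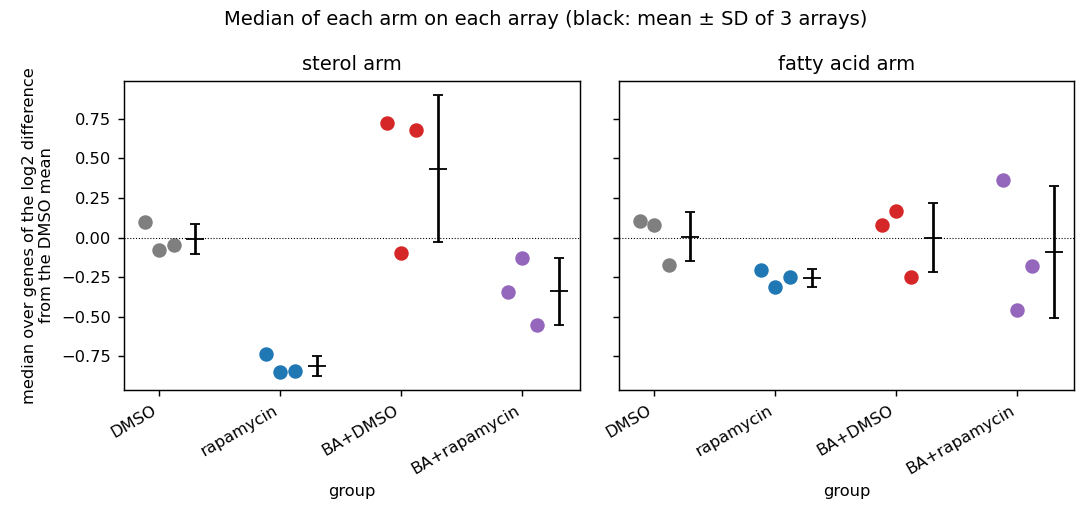
Score of each arm on each array (median over its genes of the log2 difference from the DMSO mean), with points for arrays and black marks for the mean ± SD of 3 arrays in each group. The sterol scores of the rapamycin arrays lie between -0.85 and -0.74, below all DMSO arrays, whereas the fatty acid scores of the 4 groups lie closer together.

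The comparison of rapamycin with DMSO in unchallenged mice asks what the drug did to these genes in an aorta without dissection. All 21 sterol genes had a lower mean with rapamycin, with a median log2 difference of -0.76 and a range of -1.56 to -0.21, against a median of -0.01 over all tested probes. All 27 tested sterol probes pointed the same way. The arrays of both groups did not overlap for 19 of 21 sterol genes and 5 of 9 fatty acid genes, with the rapamycin arrays lower, as for 10.7% of all tested probes. Rapamycin replicates 1, 2 and 3 were below every DMSO array for 20, 21 and 20 sterol genes. In the fatty acid arm, 8 of 9 genes had a lower mean, with a median of -0.26.

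No gene of either arm passed the test in this comparison. Limma called 0 of 30 genes at an adjusted p under 0.05, the smallest adjusted p in the sterol arm was 0.358 (Mvk and Sqle), and limma called 0.00360% of all probes. At an unadjusted p under 0.05, 13 of 21 sterol genes and 0 of 9 fatty acid genes were lower, against 1.86% of all probes. This model took the spread from all 4 groups, including the widely spread BA+DMSO arrays. With only the arrays of the DMSO and rapamycin groups in the model, 19 of 21 sterol genes and 3 of 9 fatty acid genes were lower at an unadjusted p under 0.05, against 7.08% of probes, and still 0 were called, with a smallest adjusted p of 0.0583. With a weight for each array, limma called 14 sterol genes and Scd2 lower, against 2.64% of probes, although the estimation of the weights stopped before it converged. Within slide 1, where rapamycin replicate 1 lay beside the 3 DMSO arrays, 21 of 21 sterol genes were lower by a median of -0.74 (range -1.55 to -0.21), and 7 of 9 fatty acid genes were lower by a median of -0.20. That rapamycin array carries a date that no DMSO array shares. Within the date that DMSO and rapamycin replicates 2 and 3 share, 21 of 21 sterol genes were lower by a median of -0.74 (range -1.45 to -0.16), and 8 of 9 fatty acid genes by a median of -0.26. Within this date the DMSO arrays lay on slide 1 and the rapamycin arrays on slide 2, so slide and drug cannot be told apart there. With date as a random block 0 of 30 genes were called, and 19 of them had an unadjusted p under 0.05, against 8.34% of probes. With slide as a fixed block 0 were called as well, and 6 had an unadjusted p under 0.05, against 1.62% of probes.

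The largest difference was that of Idi1, which isomerises isopentenyl diphosphate and so supplies both isoprenoid building blocks. Idi1 read 2.43, 2.06 and 2.06 in DMSO and 0.63, 0.33 and 0.89 in rapamycin. No rapamycin array came within 1 log2 unit of a DMSO array, and the probe lies at chr13:8891524-8891583 (mm9). The log2 difference was -1.56 ± 0.48 (SE), or 0.338 times the DMSO level, with an adjusted p of 0.854 in limma. Fdps, which joins isoprenoid units into farnesyl diphosphate, read 4.0, 3.52 and 3.69 in DMSO and 2.45, 2.5 and 2.77 in rapamycin, a difference of -1.16 ± 0.38 with no overlap.

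The 5 genes of the mevalonate steps all had lower means, by a median of -0.60 (range -0.77 to -0.56), and 4 of them did not overlap. Mvk, the kinase that phosphorylates mevalonate, read 3.81, 3.72 and 3.64 in DMSO and 2.99, 3.05 and 2.83 in rapamycin. That is a difference of -0.77 ± 0.14, and both groups had an SD near 0.1. Hmgcs1, the synthase whose promoter holds both motifs, read 4.54, 4.21 and 4.17 in DMSO and 3.64, 3.47 and 3.72 in rapamycin, again without overlap (difference -0.70 ± 0.34). Pmvk, the kinase that acts after Mvk, differed by -0.56 ± 0.19, also without overlap. Mvd, which acts last and makes isopentenyl diphosphate, read -0.34, -0.65 and -0.32 in DMSO and -1.08, -0.78 and -1.26 in rapamycin. Acat2, the cytosolic thiolase that starts the pathway, was the exception, since rapamycin replicate 1 (-0.72) lay within the DMSO range (-0.81, -0.47 and -0.27).

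Beyond squalene the pattern was alike. Sqle, the epoxidase that adds oxygen to squalene and is a slow step of the pathway, read 3.53, 3.16 and 3.35 in DMSO and 2.20, 2.06 and 2.27 in rapamycin, a difference of -1.17 ± 0.22. Fdft1, which makes squalene, overlapped, with 1.5, 1.33 and 1.40 in DMSO and 1.06, 0.66 and 1.37 in rapamycin. Lss, which closes the rings to lanosterol, differed by -0.76 ± 0.32 without overlap. All 8 genes after lanosterol were lower without overlap, by a median of -0.79 (range -1.25 to -0.21). Dhcr7, the reductase of the last step to cholesterol, held the lower end of that range and read -1.64, -1.70 and -1.67 in DMSO and -2.78, -2.85 and -3.12 in rapamycin. Ebp, the sterol isomerase, held the upper end, with 4.44, 4.41 and 4.24 in DMSO and 4.14, 4.15 and 4.19 in rapamycin. The groups of Ebp were apart by a small margin only. Between them lay the other sterol-ring genes, namely Cyp51 (-1.03 ± 0.73), Hsd17b7 (-0.96 ± 0.33), Sc4mol (-0.87 ± 0.39), Sc5d (-0.70 ± 0.36), Nsdhl (-0.60 ± 0.26) and Tm7sf2 (-0.46 ± 0.27).

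The regulators and the transporter of the sterol arm were lower as well. Insig1, the retention protein that is itself a target of the pathway, read 0.24, -0.09 and -0.37 in DMSO and -1.23, -1.05 and -1.61 in rapamycin, a difference of -1.22 ± 0.28. Srebf2 was lower by less, at -0.49 ± 0.25, with rapamycin arrays at -0.75, -0.15 and -0.10 and DMSO arrays at 0.25, 0.02 and 0.21. Stard4, which carries cholesterol through the cytosol, read 0.72, 0.50 and 0.24 in DMSO and -0.45, -0.26 and -0.40 in rapamycin (difference -0.86 ± 0.17). None of these groups overlapped, and none of these genes passed the test.

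In the fatty acid arm, Scd2 and Scd1 marked both ends. Both encode desaturases that make monounsaturated fatty acids. Scd2 read 5.15, 4.82 and 4.39 in DMSO and 3.84, 3.94 and 3.90 in rapamycin, a difference of -0.90 ± 0.41 with no overlap and an adjusted p of 1 in limma. Scd1 was the only fatty acid gene with a higher mean, at 2.88, 2.32 and 1.70 in DMSO and 2.74, 2.06 and 3.01 in rapamycin (difference 0.30 ± 0.46), and its groups overlapped widely. Acss2 was at -0.36 ± 0.26, Elovl6 at -0.35 ± 0.23, Me1 at -0.26 ± 0.18 and Acly at -0.12 ± 0.21. Fasn, the fatty acid synthase, differed by -0.26 ± 0.39, and Acaca, which makes malonyl-CoA, by -0.18 ± 0.23. Srebf1 differed by -0.41 ± 0.23, with rapamycin arrays at -0.06, -0.02 and -0.37 below the DMSO arrays at 0.20, 0.51 and 0.09. The median of the sterol arm minus that of the fatty acid arm was -0.50, a description for which no test was made.

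**Figure D3:**
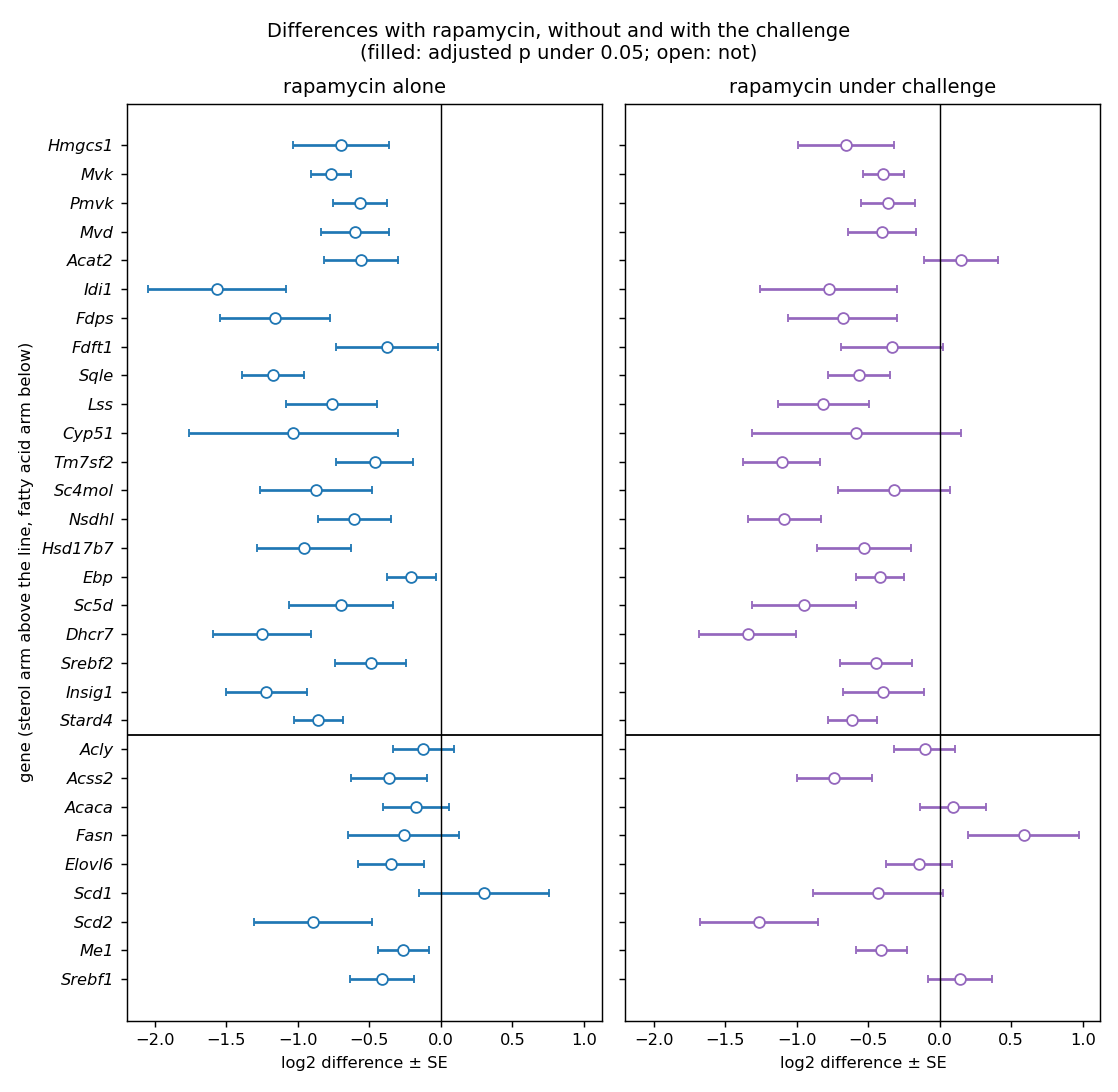
Log2 difference ± SE of each gene with rapamycin, without challenge (rapamycin minus DMSO, left) and with challenge (BA+rapamycin minus BA+DMSO, right), with filled points for adjusted p under 0.05. No point is filled, and all 21 sterol genes on the left and 20 of 21 on the right lie below 0.

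The comparison of BA+rapamycin with BA+DMSO asks what rapamycin did during challenge, and all of its arrays lay on slide 2. Of 21 sterol genes, 20 had a lower mean with rapamycin and 1 (Acat2) a higher mean, with a median difference of -0.56. In the fatty acid arm 6 were lower and 3 higher, with a median of -0.14, and the median over all probes was -0.01. Limma called 0 of 30 genes, with a smallest adjusted p of 0.0907 (Nsdhl), and 0.281% of all probes. At an unadjusted p under 0.05, 9 sterol and 3 fatty acid genes were lower, against 11% of probes. The arrays did not overlap for 5 sterol genes (Mvk, Tm7sf2, Nsdhl, Dhcr7 and Stard4) and for 0 fatty acid genes, with rapamycin lower, against 7.57% of probes, and for Dhcr7 this rests on readings that were not well above background.

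These counts turned on BA+DMSO replicate 2. Without it, limma called 18 of 21 sterol genes lower, with a median of -0.84, and 3 of 9 fatty acid genes lower (Acss2, Scd2 and Me1), whereas 22.5% of all probes were called lower in the same model. Acat2, Srebf2 and Insig1 were the sterol genes not called, and the Dhcr7 call rests on BA+rapamycin readings that were not well above background. BA+DMSO replicate 2 was 1 of 3 arrays in its group, and without it BA+DMSO rested on replicates 1 and 3. Leaving out any other array gave 0 calls. Of the dated arrays, BA+DMSO replicate 1 and BA+rapamycin replicate 1 share a date, and between these 2 arrays 21 of 21 sterol genes were lower with rapamycin (median -0.85) but only 4 of 9 fatty acid genes (median 0.20). With date as a random block limma called Nsdhl (-1.16, adjusted p = 0.0411) and Dhcr7 (adjusted p = 0.0429), against 1.65% of probes, and the Dhcr7 call rests on BA+rapamycin readings that were not well above background.

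Dhcr7, Tm7sf2 and Nsdhl had the largest measured differences of the sterol arm, and that of Dhcr7 rests on dim readings. It read -1.35, -2.75 and -1.36 in BA+DMSO, of which 2 arrays were well above background, and -3.11, -2.82 and -3.56 in BA+rapamycin, where no array was. The BA+DMSO mean was 1.83-fold higher when each BA+rapamycin array took the higher of its own signal and the lowest signal well above background. This is no lower limit, because that mean includes the dim reading of BA+DMSO replicate 2. The difference of the readings themselves was -1.34 ± 0.34 (adjusted p = 0.102 in limma), and -0.26 with normexp background correction. Nsdhl, a dehydrogenase that removes methyl groups from the sterol ring, read 0.39, -0.45 and 0.62 in BA+DMSO and -0.89, -0.77 and -1.04 in BA+rapamycin, a difference of -1.09 ± 0.26. Tm7sf2, a sterol reductase, read 1.60, 1.36 and 2.36 in BA+DMSO and 1.09, 0.35 and 0.58 in BA+rapamycin (difference -1.10 ± 0.27, adjusted p = 0.0952). In Nsdhl and Tm7sf2 BA+DMSO replicate 2 was the lowest array of its group and still above all BA+rapamycin arrays, whereas in Dhcr7 the readings of that array and of the BA+rapamycin arrays were not well above background and have no order.

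The readings of Cyp51 and Idi1 overlapped between the groups through that array alone. Cyp51, which demethylates lanosterol, read -0.01 and -0.12 on BA+DMSO replicates 1 and 3 and -3.47 on replicate 2, where it was not well above background. The BA+rapamycin arrays, all well above background, lay below replicates 1 and 3, at -1.85, -1.18 and -2.31. Replicate 2 read lower still, but its level is not known, so this overlap is not certain. Idi1 read 3.00, 0.76 and 2.68 in BA+DMSO and 1.23, 1.84 and 1.03 in BA+rapamycin, so that replicate 2 was the lowest array of both groups. Stard4 was more even, at 1.14, 0.89 and 0.80 in BA+DMSO and 0.29, 0.28 and 0.43 in BA+rapamycin (difference -0.61 ± 0.17). Acat2 was the sterol gene with a higher mean (0.15 ± 0.26), at 0.49, 0.27 and -0.37 in BA+DMSO and 0.45, 0.35 and 0.06 in BA+rapamycin, and it turned to -0.10 without BA+DMSO replicate 3.

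Scd2 had the lowest difference of the fatty acid arm. It read 4.95, 3.12 and 4.95 in BA+DMSO and 3.06, 2.99 and 3.17 in BA+rapamycin, a difference of -1.27 ± 0.41 (adjusted p = 0.16 in limma). The BA+rapamycin arrays were nearly equal, and replicate 2 of BA+DMSO lay among them. Without that array the difference was -1.88 ± 0.19 (adjusted p = 0.0014). Fasn lay at the other end, with -0.49, -0.38 and -1.35 in BA+DMSO and 0.81, -0.80 and -0.47 in BA+rapamycin (difference 0.59 ± 0.39). Without BA+rapamycin replicate 1 the difference was 0.10. That array had the highest value of its group for 7 of 9 fatty acid genes. It also had the highest adipocyte score of any array, and whether this bears on those values was not tested.

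**Figure D4:**
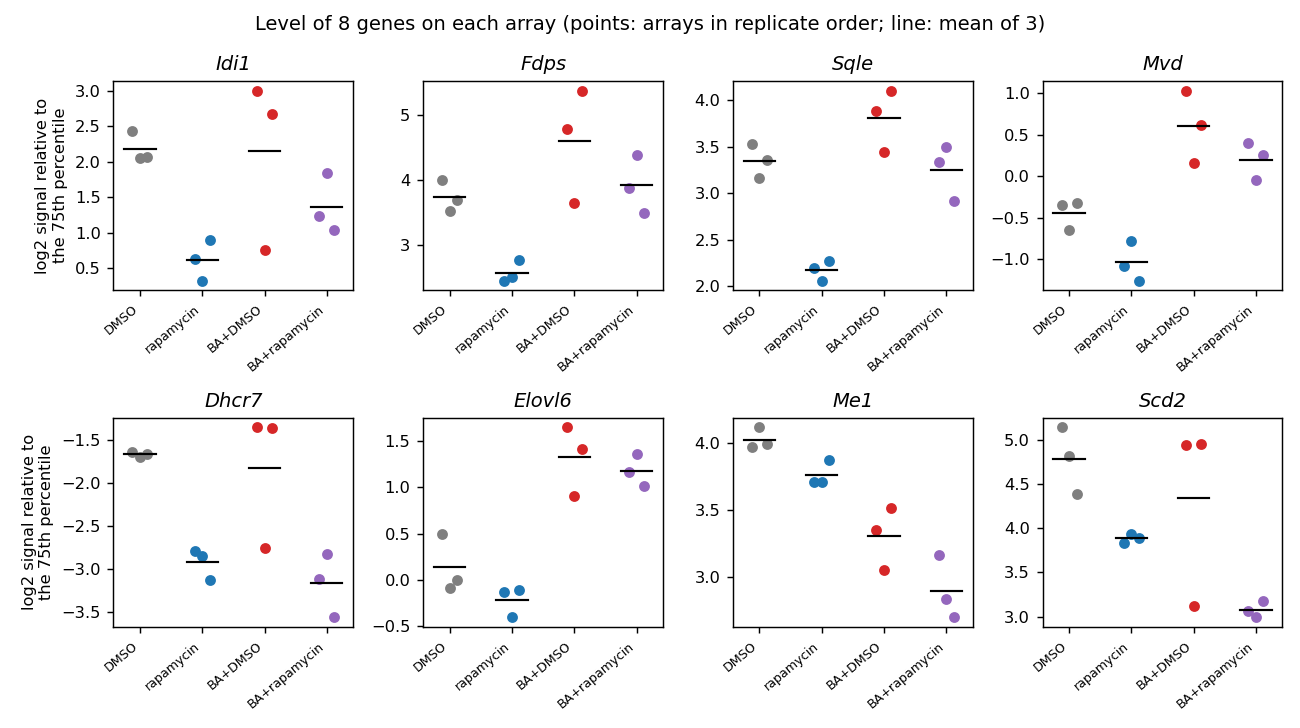
Level of 8 genes on each array (log2 processed signal relative to the 75th percentile of the array), with points for arrays in replicate order and a line for the mean of 3 arrays. The rapamycin points of Idi1, Fdps, Sqle, Mvd, Dhcr7 and Scd2 lie below all DMSO points, and the Elovl6 points are high and the Me1 points low in both challenged groups.

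The comparison of BA+DMSO with DMSO asks what the challenge did without rapamycin. In the sterol arm 16 genes had a higher and 5 a lower mean, with a median of 0.41 against -0.04 over all probes. Limma called 3 sterol genes higher (Mvk, Mvd and Ebp), against 9.65% of probes called higher. In the fatty acid arm 4 genes had a higher and 5 a lower mean, with a median of -0.15, and limma called Elovl6 higher and Me1 lower, against 10.8% of probes called lower. The called share of the sterol arm was near that of all probes, and the count depended on which arrays entered. It was 5 genes with all arrays and 3, 1 and 2 without DMSO replicates 1, 2 and 3. It was 3, 12 and 7 without BA+DMSO replicates 1, 2 and 3. Without any 1 DMSO array or BA+DMSO replicate 1, 7.38% to 11.8% of all probes were called in either direction. Without BA+DMSO replicate 3 that share was 38%. Without BA+DMSO replicate 2, 10 of 21 sterol genes were called higher, against 13.6% of probes. In that case 20 of 21 sterol genes had a higher mean, and the median was 0.65. With slide as a term, which only the rapamycin group could estimate, 0 genes and 0.0540% of probes were called, with Mvd at 0.98 (adjusted p = 0.472), Elovl6 at 1.31 (adjusted p = 0.325) and Me1 at -0.81 (adjusted p = 0.437). With date as a fixed block over the 10 dated arrays, of which only BA+DMSO replicate 1 was left in its group, 0 genes were called, against 6.16% of probes, and the fatty acid median was -0.62. With date as a random block Mvd, Ebp, Elovl6 and Me1 were called, against 19.1% of probes.

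Mvd rose most in the sterol arm. It read -0.34, -0.65 and -0.32 in DMSO and 1.03, 0.16 and 0.61 in BA+DMSO, so that the lowest challenged array was above every DMSO array. The log2 difference was 1.04 ± 0.24 (adjusted p = 0.0131 in limma), and 0.066 was its adjusted p without DMSO replicate 2. The probe lies at chr8:124957750-124957809 (mm9). Mvk rose from 3.81, 3.72 and 3.64 to 4.20, 4.18 and 4.34 (0.51 ± 0.14, adjusted p = 0.0275), and Ebp from 4.44, 4.41 and 4.24 to 5.13, 4.63 and 5.08 (0.58 ± 0.17, adjusted p = 0.0339). The groups of neither gene overlapped, yet the calls were lost without any 1 of the DMSO arrays or without BA+DMSO replicate 1, with adjusted p values of 0.0555 to 0.103 for Mvk and 0.0736 to 0.116 for Ebp. Ebp also lost its call, with adjusted p values of 0.0508 to 0.0559, without BA+rapamycin replicate 3 or without any 1 rapamycin array. With normexp background correction neither was called, with Mvk at 0.25 (adjusted p = 0.249) and Ebp at 0.33 (adjusted p = 0.258). A second tested Mvk probe gave 0.42 with an adjusted p of 0.128.

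Fdps and Nsdhl showed how far the group was spread. Fdps read 4.0, 3.52 and 3.69 in DMSO and 4.78, 3.64 and 5.37 in BA+DMSO (0.86 ± 0.38, adjusted p = 0.134), and Nsdhl read -0.31, -0.53 and -0.62 in DMSO and 0.39, -0.45 and 0.62 in BA+DMSO (0.67 ± 0.26, adjusted p = 0.0863). Without BA+DMSO replicate 2 both were called, at 1.34 (adjusted p = 0.00761) and 0.99 (adjusted p = 0.00321). Insig1 differed by -0.20 without that array. The lowest differences with all arrays were those of Insig1 (-0.45 ± 0.28), Cyp51 (-0.40 ± 0.73) and Fdft1 (-0.20 ± 0.36), and none was called. The size and rank of the Cyp51 value are inexact, because Cyp51 was not well above background on BA+DMSO replicate 2. Insig1 read 0.24, -0.09 and -0.37 in DMSO and -0.16, -1.03 and -0.40 in BA+DMSO, with overlap. Cyp51 and Fdft1 turned to 0.73 and 0.30 without BA+DMSO replicate 2, and a second tested Fdft1 probe gave 0.25.

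Elovl6, the elongase that makes stearate from palmitate, was the fatty acid gene with the largest rise. It read 0.49, -0.09 and 0.00 in DMSO and 1.64, 0.90 and 1.41 in BA+DMSO, and every challenged array was above every DMSO array. The log2 difference was 1.18 ± 0.23, or 2.27-fold (adjusted p = 0.00611 in limma), and the probe lies at chr3:129341248-129341307 (mm9). It was called in each model that left out 1 array. Me1, the malic enzyme that supplies NADPH for fatty acid synthesis, fell from 3.97, 4.12 and 3.99 to 3.35, 3.05 and 3.51 (-0.72 ± 0.18, adjusted p = 0.0182), again with no overlap. The fall of Me1 was not called without DMSO replicate 2 (adjusted p = 0.0827) or DMSO replicate 3 (adjusted p = 0.0542). It was not called either with array brightness as a covariate (-0.48, adjusted p = 0.0831). A second Me1 probe gave -0.77 (adjusted p = 0.0276) and the remaining probe gave 0.12.

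The other fatty acid genes did not pass. Scd1 read 2.88, 2.32 and 1.70 in DMSO and 3.37, 2.72 and 3.13 in BA+DMSO (0.78 ± 0.46, adjusted p = 0.247). Acss2, which makes acetyl-CoA from acetate, read 1.63, 1.63 and 1.19 in DMSO and 1.01, 0.65 and 1.23 in BA+DMSO (-0.52 ± 0.26, adjusted p = 0.189), and both genes overlapped between groups. Scd2 differed by -0.45 ± 0.41, and by 0.16 without BA+DMSO replicate 2, and Fasn differed by 0.11 ± 0.39, and by -0.07 without that array. Acly, which makes cytosolic acetyl-CoA from citrate, differed by 0.03 ± 0.21.

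The comparison of BA+rapamycin with rapamycin asks what the challenge did in mice on the drug. In the sterol arm 18 genes had a higher and 3 a lower mean, with a median of 0.40 against -0.08 over all probes. Limma called 6 sterol genes higher (Mvk, Mvd, Acat2, Fdps, Sqle and Stard4), against 18.9% of probes, and 0 lower. In the fatty acid arm 6 genes had a higher and 3 a lower mean, with a median of 0.05, and limma called Elovl6 higher and Acss2 and Me1 lower, against 22.9% of probes. The count of 9 was 15 without BA+DMSO replicate 2, where 56.9% of all probes were called. Without BA+rapamycin replicate 1 the fatty acid arm turned, with 6 of 9 genes lower and a median of -0.17. With date as a fixed block over the dated arrays only Acat2 was called (1.74, adjusted p = 0.0386), against 13% of probes, and the sterol median was 0.04. With date as a random block 9 genes were called, against 40% of probes. Within slide 2, where the challenged arrays lay beside rapamycin replicates 2 and 3, 18 of 21 sterol genes were again higher, with a median of 0.45, and 6 of 9 fatty acid genes, with a median of 0.10. Across both challenge comparisons 10 genes were called, 4 of them in both (Mvk, Mvd, Elovl6 and Me1), each in the same direction. Of all probes 45.5% were called in either comparison and 16.7% in both in the same direction.

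Acat2 rose most in the sterol arm here, from -0.72, -1.14 and -1.36 in rapamycin to 0.45, 0.35 and 0.06 in BA+rapamycin (1.36 ± 0.26, adjusted p = 0.00322 in limma). Fdps rose from 2.45, 2.5 and 2.77 to 3.88, 4.38 and 3.49 (1.34 ± 0.38, adjusted p = 0.0183), and Mvd from -1.08, -0.78 and -1.26 to 0.39, -0.05 and 0.25 (1.24 ± 0.24, adjusted p = 0.00341). None of these groups overlapped. Sqle rose by 1.07 ± 0.22 (adjusted p = 0.0042), with BA+rapamycin arrays at 3.33, 3.50 and 2.91, and Mvk by 0.89 ± 0.14 (adjusted p = 0.00144), at 3.87, 3.87 and 3.79. Stard4 rose by 0.70 ± 0.17 (adjusted p = 0.00918), from -0.45, -0.26 and -0.40 to 0.29, 0.28 and 0.43. Of the genes not called, Hsd17b7 (0.83 ± 0.33, adjusted p = 0.0594) and Idi1 (0.75 ± 0.48, adjusted p = 0.221) had the highest differences. The Fdps call was lost without rapamycin replicate 1 or 2 or BA+rapamycin replicate 2, with adjusted p values of 0.0513 to 0.0694, and also with normexp (0.90, adjusted p = 0.0682), with slide as a fixed block (1.28, adjusted p = 0.0559) and with date as a fixed block (0.45, adjusted p = 0.298). With array brightness as a covariate Acat2 (0.63, adjusted p = 0.321) and Stard4 (0.72, adjusted p = 0.143) were not called. On slide 2 alone Mvk, Mvd, Acat2 and Elovl6 were called, against 11.8% of probes, and Sqle had an adjusted p of 0.0511.

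Tm7sf2 (-0.30 ± 0.27), Dhcr7 (-0.24 ± 0.34) and Fdft1 (-0.15 ± 0.36) were the sterol genes with a lower mean. Dhcr7 had no fold here, because it was not well above background on any BA+rapamycin array. A second tested probe of Tm7sf2 gave 0.07 and a second probe of Fdft1 gave 0.39, so their signs were not settled. Fdft1 also turned to 0.02 without rapamycin replicate 3.

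In the fatty acid arm, Elovl6 rose from -0.13, -0.40 and -0.11 in rapamycin to 1.17, 1.35 and 1.01 in BA+rapamycin (1.39 ± 0.23, adjusted p = 0.00168 in limma). Me1 fell from 3.71, 3.71 and 3.87 to 3.16, 2.83 and 2.70 (-0.87 ± 0.18, adjusted p = 0.00458), although 1 of its probes gave 0.30. Both genes moved as they had without the drug and with no overlap, but with array brightness as a covariate Me1 was not called (-0.44, adjusted p = 0.292). Acss2 fell from 1.30, 0.91 and 1.15 to 0.79, -0.19 and 0.09 (-0.89 ± 0.26, adjusted p = 0.0219). Its call was lost without rapamycin replicate 1 or 3 or BA+rapamycin replicate 2 or 3, with adjusted p values of 0.0666 to 0.0831, and a second probe gave -0.09. With the brightness covariate Acss2 was at -0.16 (adjusted p = 0.834). Scd2 read 3.84, 3.94 and 3.90 in rapamycin and 3.06, 2.99 and 3.17 in BA+rapamycin (-0.82 ± 0.41, adjusted p = 0.129), with no overlap. With only these groups in the model its adjusted p was 0.00187, in a model that called 56.4% of all probes. Fasn (0.96 ± 0.39, adjusted p = 0.0657) and Srebf1 (0.40 ± 0.23, adjusted p = 0.164) had higher means, and Fasn was at 0.48 without BA+rapamycin replicate 1. A second probe of Acly gave 2.11 (adjusted p = 0.00427) beside 0.05 for the brighter probe.

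**Figure D5:**
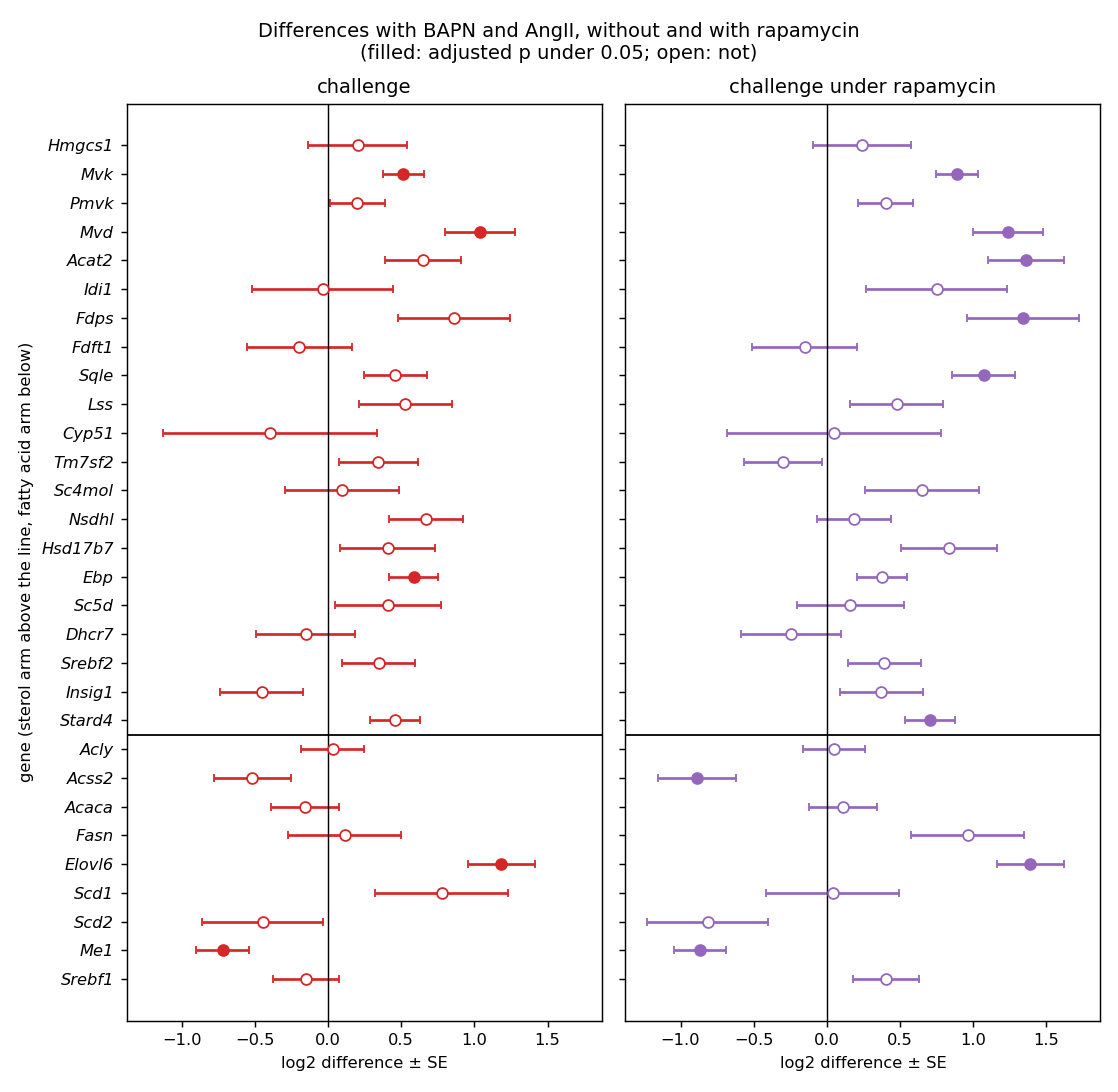
Log2 difference ± SE of each gene with BAPN + AngII challenge, without rapamycin (BA+DMSO minus DMSO, left) and with rapamycin (BA+rapamycin minus rapamycin, right), with filled points for adjusted p under 0.05. Filled points number 5 on the left and 9 on the right, with Mvk, Mvd, Elovl6 and Me1 filled in both panels.

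The interaction asks whether rapamycin changed these genes by a different amount under challenge than without it. Limma called 0 of 30 genes and 0% of all probes. An unadjusted p under 0.05 was found for 0 of the 30 genes, against 6.12% of probes. The median interaction was 0.20 in the sterol arm, 0.02 in the fatty acid arm and -0.03 over all probes. Without BA+DMSO replicate 2 the medians were -0.02 and -0.12. The positive sign of the medians with all arrays held in 23 of 25 alternatives in the sterol arm and 18 of 25 in the fatty acid arm. Insig1 had the highest estimate of the sterol arm, with -1.22 for rapamycin alone and -0.40 under challenge, an interaction of 0.82 ± 0.40 (adjusted p = 0.737), or 0.57 ± 0.35 without BA+DMSO replicate 2. Without BA+DMSO replicate 2, limma called Scd2 (-0.98 ± 0.26, adjusted p = 0.0459) and 0 sterol genes, against 11% of probes in that model. A p above the threshold here does not show that the drug acted alike in both settings.

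Genes that handle the sterol regulatory factors or the products of the arms were set beside them, from lists chosen with results of these data in view. Of 9 genes that process the factors, limma called 3 lower under challenge and 5 lower under challenge with rapamycin, and 0 higher, against 10.8% and 22.9% of all probes called lower. Lpin1, a phosphatidate phosphatase that mTOR is known to control, fell by 1.75 (SE 0.36, adjusted p = 0.00787) under challenge, with 2 of the 3 challenged arrays past the background flag, and Insig2, the second retention protein, fell by 1.69 (SE 0.33, adjusted p = 0.00387) under challenge with rapamycin. Erlin1, a membrane protein that binds cholesterol, had the highest values, 0.52 ± 0.28 and 0.12 ± 0.28, and was not called. Rapamycin alone left the median of this list at -0.00, with 0 called. Scap, the escort protein, differed by -0.01 ± 0.15 with rapamycin alone.

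Of 13 genes of sterol sensing, efflux and storage, 1 was called higher and 3 lower under challenge, and 1 higher and 4 lower under challenge with rapamycin, against 9.65% of all probes higher and 10.8% lower in the first comparison and 18.9% and 22.9% in the second. Ch25h, which makes the oxysterol 25-hydroxycholesterol, rose by 3.70 ± 0.75 (adjusted p = 0.00743) and 3.92 ± 0.75 (adjusted p = 0.00321), with 2 of 3 DMSO arrays well above background. Cyp27a1, which makes another oxysterol, passed the background flag on only 1 of the 3 BA+DMSO arrays and on 0 of the 3 BA+rapamycin arrays, and was called lower in both comparisons (adjusted p = 0.00797 and 0.000348). It entered the test only through the DMSO and rapamycin groups, where it was higher. Its level was at least 1.49-fold higher in rapamycin than in BA+rapamycin. Of 16 genes of fatty acid elongation, activation and glycerolipid synthesis, 0 were called higher and 1 lower under challenge, and 1 higher and 4 lower under challenge with rapamycin, against those same shares of all probes. Acsl1, which activates long fatty acids, fell by 0.80 (SE 0.24, adjusted p = 0.036) and by 1.55 (SE 0.24, adjusted p = 0.00118), while Dgat2, which makes triglycerides, had the highest value under challenge (1.06 ± 0.70, adjusted p = 0.308). Mlxipl, a carbohydrate response factor, rose by 1.07 ± 0.39 (adjusted p = 0.048) under challenge with rapamycin. Of 4 genes of citrate export and NADPH supply, Pgd of the pentose phosphate pathway rose in both challenge comparisons, by 0.74 ± 0.17 (adjusted p = 0.0148) and 0.49 ± 0.17 (adjusted p = 0.0419), whereas Slc25a1, the citrate carrier, differed by 0.01 ± 0.35 and -0.40 ± 0.35. Limma called 0 genes of these lists in either rapamycin comparison. With rapamycin alone their medians were 0.11, -0.04 and -0.04 in the same order, where that of the sterol arm was -0.76.

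Markers of other cells moved with some of these results. Of 8 adipocyte markers 6 were tested, whereas Lep and Lipe were too dim, and 0 were called in any comparison. The adipocyte score ranged from -0.47 to 0.45 on DMSO arrays, -1.31 to 0.78 on rapamycin arrays, 0.33 to 2.63 on BA+DMSO arrays and -0.25 to 2.95 on BA+rapamycin arrays. The mean adipocyte level ranged from 0.03 to 0.82, -0.87 to 1.04, 0.72 to 2.75 and 0.21 to 2.91 in the same groups. Brown adipocyte markers were tested for 4 of 6 genes. Of these Ucp1, not well above background on any DMSO array, was at least 6.47-fold higher in BA+DMSO (adjusted p = 0.0143 in limma). Ucp1 entered the test only through BA+DMSO, the group where it was high, so its call is no independent support for a rise. Cidea fell by 2.61 (SE 0.52, adjusted p = 0.00382) under challenge with rapamycin, although the median of the list was then 0.68. That median was 1.32 under challenge and -1.72 for rapamycin under challenge, with 0 called in the latter. The brown adipocyte scores were -0.17 to 0.21 on DMSO arrays and -0.32 to 0.08 on rapamycin arrays. They were 0.10 to 2.41 on BA+DMSO arrays and -0.81 to 1.38 on BA+rapamycin arrays. The highest adipocyte scores were those of BA+rapamycin replicate 1 and BA+DMSO replicate 2, and the former also gave the highest Fasn, Scd1, Acaca and Acly values of its group. BA+DMSO replicate 2 gave the highest Fasn and Acaca values of its group but the lowest Scd1 and Acly values. It gave the lowest value for 6 of 9 fatty acid genes. The part of fat in the values of either arm was not tested.

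Of all probes 9.65% were called higher and 10.8% lower under challenge, and 18.9% and 22.9% under challenge with rapamycin, and the marker counts stand against these shares. Of 8 macrophage markers, all tested, limma called 7 higher under challenge and 6 higher under challenge with rapamycin, and their scores were -0.41 to 0.56 on DMSO arrays, 0.27 to 0.62 on rapamycin arrays, 1.33 to 2.75 on BA+DMSO arrays and 1.82 to 1.89 on BA+rapamycin arrays. Of 9 cell cycle genes 7 were tested. Top2a of these was not well above background on any DMSO or rapamycin array. It was at least 5.41-fold higher in BA+rapamycin than in rapamycin. Top2a and Ccnb1 entered the test only through challenged groups, where they were high, so their calls are no independent support for a rise. All 7 genes were called higher in both challenge comparisons. Their scores were -0.11 to 0.05 on DMSO arrays, -1.10 to -0.89 on rapamycin arrays, 2.87 to 5.28 on BA+DMSO arrays and 2.86 to 3.29 on BA+rapamycin arrays. As in the sterol arm, the lowest mean score was that of rapamycin and the highest that of BA+DMSO, whereas DMSO and BA+rapamycin stood in the opposite order. Neutrophil scores, over 4 of 5 markers, were -0.13 to 0.16 on DMSO arrays, and with rapamycin alone they were higher on every array, at 0.33 to 1.07, although 0 markers were called there. They were 0.30 to 2.55 on BA+DMSO arrays and 0.90 to 1.48 on BA+rapamycin arrays, with 1 marker called higher in each challenge comparison. Of 7 endothelial markers 3 were called higher and 0 lower under challenge, and 1 higher and 2 lower under challenge with rapamycin. With rapamycin alone 0 endothelial markers were called and their median difference was 0.40. Their scores were then 0.15 to 0.56, overlapping the DMSO range of -0.15 to 0.17. Of 7 Schwann cell markers tested 3 were called higher and 1 lower under challenge, and 2 higher and 1 lower under challenge with rapamycin. Mag, 1 of these 7, entered the test only through the BA+DMSO group. Lymphocyte markers were tested for 4 of 6 genes, with 1 called higher in each challenge comparison, and striated muscle markers for 3 of 7, with 1 called lower under challenge with rapamycin. With rapamycin alone 0 markers of either list were called, the median lymphocyte difference was -0.78, and the lymphocyte scores ran from -1.23 to 0.35, around the DMSO range of -0.14 to 0.13. The striated muscle scores were then -0.27 to -0.15, below the DMSO range of -0.04 to 0.06. Cd3d, Cd3g and Cd79a of the lymphocyte list and Ckm of the striated muscle list entered the test only through the DMSO group. Cd3d and Cd3g passed the background flag on 1 of 3 rapamycin arrays, and Cd79a and Ckm on 2. A lower reading than DMSO is thus partly built in for these genes, and these scores show no fall. The part of these cell types in the differences of the sterol and fatty acid genes was not tested.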

How the data were processed

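RNA of 12 aortas was hybridised to Agilent 1-colour mouse arrays with 62976 spots each, and the deposited intensity values are the processed signals of the scanner software, which are background-corrected per the file headers (Feature Extraction 10.7.1.1, whereas the submitters' processing notes name 9.5.1.1). The deposited value table holds linear intensities that follow a quantile normalization of the same arrays, and how the authors made it is not given in the sources used here. The deposited flags for background and outliers hold yes or no for each spot.

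Control spots and outlier spots were left out, the log2 processed signal was set relative to the 75th percentile of its array, and spots of a probe were averaged. Probes entered the test where some group had, on each of its 3 arrays, a share of spots above the background flag of 0.5 or more. Limma 3.58.1 in R 4.3.3 fitted the means of the 4 groups over all 12 arrays with moderated variances, and two-sided p-values were adjusted by Benjamini-Hochberg within each comparison over all tested probes. A gene was called at an adjusted p under 0.05, and was represented by its tested probe with the highest mean over 12 arrays. Array coordinates are those of mm9, for which no exon annotation was used here. The test was also run on simulated data, with the same spread in all groups and no slide or date structure. The arrays differ in these respects, so that run does not show how the test does on them. The labels describe 1 mouse per array, and replicates were numbered in deposition order. All 30 genes are accounted for; those with the largest differences or a call in a comparison are given in full. The members, their arms and the other lists were chosen with earlier results of these data known. Alternatives were quantile normalization, the deposited table, normexp background correction with an offset of 50, other probe filters, all probes of a gene, only the groups compared, slide as a fixed or random block, slide 2 alone, array weights, a trended robust prior, brightness as a covariate, the study's rule (p under 0.01 and a fold above 4 or below 0.25) and leaving out each array. The date in the sample titles as a fixed or random block was added after seeing the data. The precision is limited by 3 arrays a group.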

Additional observations from a re-analysis of the deposited data

How the results depend on the processing

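The sterol arm kept a negative median with rapamycin alone in 26 of 26 alternatives (-0.82 to -0.66, the latter with normexp) and with rapamycin under challenge in 27 of 27 (-0.85 to -0.33), and a positive one under challenge in 26 of 26 (0.21 to 0.72). The fatty acid median held its sign in 23 of 27 under challenge with rapamycin (-0.29 to 0.51), 25 of 27 with rapamycin under challenge (-0.35 to 0.20) and 18 of 25 for the interaction (-0.20 to 0.27). Calls moved more. The 5 genes called under challenge became 2 with no filter on dim probes (7.65% of all probes called), 9 with slide as a random block (36.9%), and 0 with only the groups compared (4.47%), slide as a fixed block (0.0540%), array weights (0.403%) or the study's rule; leaving out 1 array gave 1 (DMSO replicate 2) to 12 (BA+DMSO replicate 2). The 9 called under challenge with rapamycin became 14 with only the groups compared (56.4% of probes), 4 on slide 2 alone (11.8%), 17 with array weights (65.7%) and 0 by the study's rule; leaving out 1 array gave 7 (rapamycin replicate 1) to 15 (BA+DMSO replicate 2, 56.9%). With rapamycin alone array weights called 15, and their estimation stopped before convergence. Leaving out 1 array gave 0 to 21 calls for rapamycin under challenge and 0 to 1 for the interaction, the highest without BA+DMSO replicate 2. The cause of these shifts was not tested.

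Some genes changed sign. With rapamycin alone 0 of the sterol genes tested did in any alternative, and of the fatty acid genes Fasn did with slide as a fixed block. The genes named here are those with the largest rises and falls of each arm. Among them, those that turned under challenge were Cyp51 with normexp (0.16), Fdft1 with all its probes (0.027) and Fasn with array weights (-0.19). With brightness as a covariate they were Fdft1 (0.48), Cyp51 (0.79), Fasn (-0.14) and Scd2 (0.42). Acly, not among the named genes, turned with normexp (-0.21) and with date as a random block (-0.10). It also turned without DMSO replicate 3 (-0.058) or BA+DMSO replicate 3 (-0.079). Leaving out 1 array gave -0.49 to 0.30 for Fdft1, -0.99 to 0.73 for Cyp51, -0.067 to 0.42 for Fasn and -0.75 to 0.16 for Scd2. Without BA+DMSO replicate 2 Idi1 (0.66) and Dhcr7 (0.31) turned too, 4 sterol genes in all. Under challenge with rapamycin those named were Dhcr7 with normexp (0.66), Fdft1 with all its probes (0.12), and with the brightness covariate Fdft1 (1.03), Tm7sf2 (0.54), Dhcr7 (0.55), Scd2 (0.71) and Srebf1 (-0.0039); leaving out 1 array gave -0.34 to 0.015 for Fdft1. That covariate also moved the arm medians of this comparison to 1.03 (sterol) and 0.51 (fatty acid), and ended the calls of Acat2, Stard4, Acss2 and Me1 there and of Me1 under challenge. Normexp ended those of Mvk and Ebp under challenge and of Fdps under challenge with rapamycin. For rapamycin under challenge, Acat2 became -0.0817 with the brightness covariate. The covariate turned Cyp51 (0.089), Fdft1 (0.048), Sc4mol (0.063) and Acly (0.085) to higher there, and 18 of 21 sterol genes were lower. When 1 array was left out, Acat2 ranged from -0.10 to 0.33. Cyp51 (0.011) turned without BA+DMSO replicate 1, and Sc4mol (0.017) without BA+DMSO replicate 3. Quantile normalization moved the median of all probes to -0.10 under challenge and -0.18 under challenge with rapamycin, and normexp moved the latter to 0.14. The date in the sample titles was fitted as a block after seeing the data. As a fixed block over the dated arrays it gave 0 calls under challenge and 1 under challenge with rapamycin, medians of -0.62 (fatty acid arm, challenge) and 0.039 (sterol arm, challenge under rapamycin), and turned Cyp51 (0.34), Fasn (-0.95) and Scd1 (-0.44) under challenge and Acat2 (-0.045) with rapamycin under challenge among the named genes. Over all genes it turned 6 of 21 sterol and 3 of 9 fatty acid genes under challenge, and 7 (Cyp51, Hmgcs1, Insig1, Lss, Nsdhl, Sc4mol and Sc5d) and 2 (Acly and Scd1) under challenge with rapamycin. As a random block it gave 2 calls with rapamycin under challenge and turned Fasn under challenge (-0.21). Apart from these blocks by date, no paired analysis was possible because the replicate numbers only follow the order of deposition.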
